A study of Rattus norvegicus with 6 samples.

Results

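The regions described here are short accessible regions that lie close together on the chromosomes of INS-1 cells, which come from a rat insulinoma and serve as a model of beta cells. A merged peak was a member when it was outside the mitochondrial chromosome, was shorter than 1500 bp and had at least 12 other merged peaks with midpoints within 25000 bp of its own. Of 220490 merged peaks, 45248 were members (20.5% of the 220487 outside the mitochondrial chromosome). They are compared with 164484 short peaks that had 1 to 11 neighbours and 7786 that had none. The rule used positions and lengths only. Its neighbours include peaks called in any of the libraries, however, so that peaks which appeared under a stimulus count toward the density.

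Accessible regions are stretches of DNA that nucleosomes leave open, most often promoters and enhancers. Enhancers that lie in dense groups are known for heavy loading with Mediator, the complex that connects transcription factors with RNA polymerase II, and in many cell types they surround genes of cell identity or genes that answer a signal. In beta cells, cAMP activates PKA and CREB, and chromatin around CREB target genes opens soon after the stimulus. In ATAC-seq the Tn5 transposase inserts adapters into DNA that is not covered, and the density of reads follows the openness of the chromatin.

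The libraries came from WT INS-1 cells and from Med14 S983A knock-in cells. Med14 is the subunit that holds Mediator together, and S983A puts an alanine at a serine that PKA phosphorylates. Cells of each genotype were placed in serum-free medium and were left untreated (CON) or were exposed for 1 h to 10 nM Ex-4, a stable agonist of the GLP-1 receptor, or to 10 µM FSK, which activates adenylate cyclase directly. Each condition had 1 library, so there is no replicate error, no test was made and every difference describes these libraries. The methods speak of replicates and of a pair of separately made knock-in lines for the experiments in general. They do not tie these to the ATAC-seq libraries, so which line gave the mutant libraries, and whether replicates were pooled in them, is not given.

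Levels are FPKM as deposited, which scale the reads of a peak by its length and by the reads of the library. The reads inside peaks, recovered from the steps of the lowest values, were about 151500000 in WT CON, 158800000 in WT Ex-4 and 251200000 in WT FSK. In Med14 S983A there were 134300000 for CON, 147100000 for Ex-4 and 163000000 for FSK. Peaks that were not called in a library have a level of 0 there, and are described as listed at 0. The rn6 sequence and its annotation were not used here, so the members are given by rn6 position, as in the deposited table, without genes.

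Members were more tightly packed than other peaks, and shorter than those with a few neighbours. Their median length was 255 bp, against 289 bp for peaks with 1 to 11 neighbours and 242 bp for those with none. The median distance from a member to the nearest other midpoint was 1122 bp, against 2520 bp and 37952 bp. The median number of neighbours was 14 and the highest was 46. Just inside the limit, 9212 peaks had 12 neighbours and a median of 1.71 FPKM in WT CON and 3.22 FPKM in WT FSK. Just outside it, 10580 peaks had 11 neighbours and medians of 1.79 and 3.28 FPKM. At the length limit, 238 members of 1400 to 1499 bp had a median of 24.3 FPKM in WT CON and 23.6 FPKM in WT FSK, and 175 equally dense peaks of 1500 to 1599 bp had 24 and 24.6 FPKM.

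**Figure D1:**
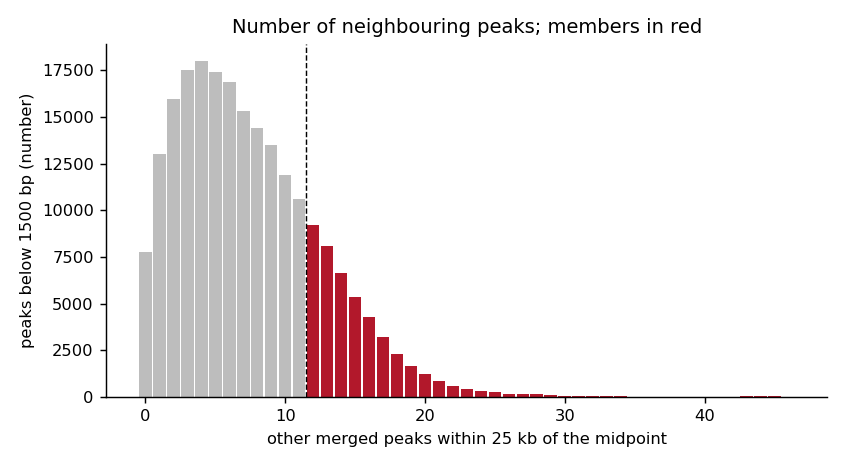
Number of peaks shorter than 1500 bp (y axis), by the number of other merged peaks within 25 kb (x axis), with members in red to the right of the dashed line. Members are the right tail of a distribution without a gap at 12 neighbours: 10580 peaks have 11 neighbours and 9212 have 12.

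Members were spread unevenly over the chromosomes. On chromosome 12 they were 48.7% of all peaks, on chromosome 10 they were 30.5% and on chromosome 7 they were 26.5%. The X chromosome had the lowest share with 6.80%, followed by chromosome 15 with 7.21%. Members whose midpoints lay within 25000 bp of each other were joined into 2862 clusters, which covered 136 Mb in total. The median cluster held 12 members, 276 held a single member, 137 held at least 50 and the largest held 286. The 137 clusters of at least 50 held 10334 members (22.8%).

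A member was less often called in every library than a peak with a few neighbours. Of the members, 15731 (34.8%) were called in all 6 libraries, against 39.8% of peaks with 1 to 11 neighbours and 31.3% of those with none. A further 11986 members (26.5%) were called in 1 library only, against 22.4% and 25.1%. WT FSK, the deepest library with the most called peaks, held 4743 of them (39.6%), against 42.2% and 49.8% of the single-library peaks of the other groups. The median level over all members was 1.17 FPKM in WT CON, 1.31 FPKM in WT Ex-4 and 3.21 FPKM in WT FSK. The values of Med14 S983A were 0.718 FPKM in CON, 1.54 FPKM with Ex-4 and 2.62 FPKM with FSK. In both genotypes the FSK library was thus the highest and CON the lowest. These medians follow the share of members listed at 0, which was 47.2%, 46% and 25.4% in WT and 49.4%, 44.4% and 33.7% in Med14 S983A in the same order.

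The members called in all 6 libraries were stronger than other such peaks. Their median was 10.6 FPKM in WT CON, 10.7 FPKM in WT Ex-4 and 11.1 FPKM in WT FSK, and 9.96, 10.1 and 10.3 FPKM in Med14 S983A. Peaks with 1 to 11 neighbours had medians between 6.68 and 8.18 FPKM in the 6 libraries, and peaks with none had medians between 3.81 and 5.42 FPKM. In both of these comparison groups FSK was the lowest library of each genotype, whereas among members it was the highest. The median change of members under FSK on the log2(FPKM + 0.5) scale was nevertheless -0.068 in WT and -0.0062 in Med14 S983A, against -0.13 and -0.12 over all such peaks.

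**Figure D2:**
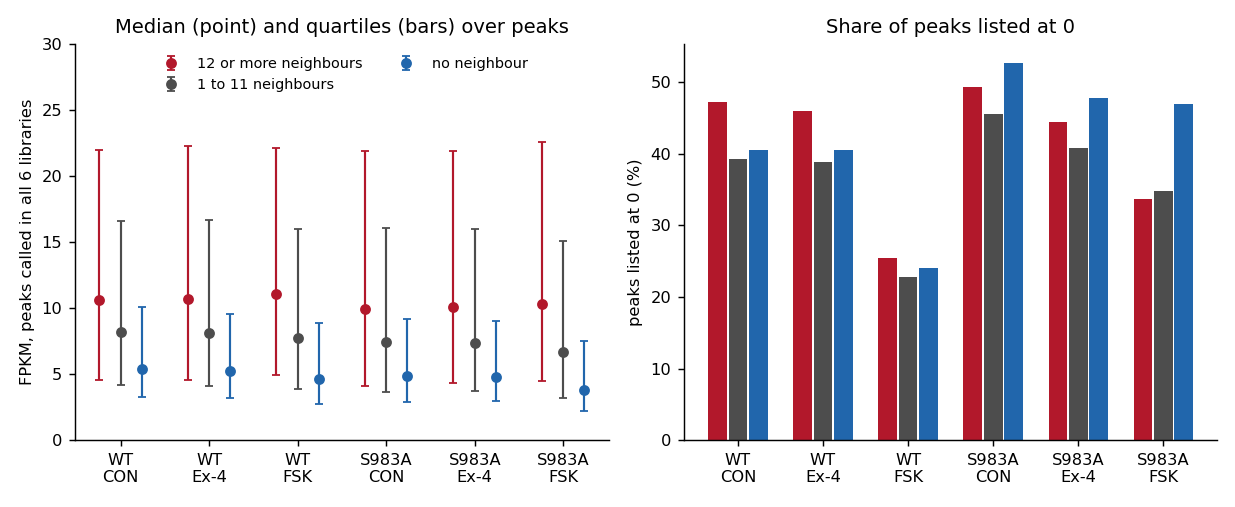
Left, FPKM of peaks called in all 6 libraries (median as a point, lower and upper quartile as bars over peaks, not replicate error) in each library for members, peaks with 1 to 11 neighbours and peaks with none. Right, share of all peaks of each group listed at 0; members have the highest medians in every library (9.96 to 11.1 FPKM), and their share at 0 falls from 47.2% in WT CON to 25.4% in WT FSK.

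Density within the peak list of a single library was highest with FSK in each genotype. When neighbours were counted within the peak list of a single library, 2984 short peaks had at least 12 in WT CON (2.27% of the peaks called there) and 3209 (2.42%) in WT Ex-4. In WT FSK there were 15504 (9.15%). In Med14 S983A the numbers were 2569 (2.16%) for CON, 3763 (2.91%) for Ex-4 and 8933 (6.20%) for FSK. All of these peaks were members by construction, since neighbours in the list of a library are also neighbours in the merged list. FSK libraries were also the deepest of each genotype, and the part of depth in these numbers was not tested. In clusters of at least 10 members, of which there were 1624, the median share of members called was 54.5% in WT CON, 54.5% in WT Ex-4 and 76.2% in WT FSK. The shares in Med14 S983A were 51.9%, 56.7% and 66.7%. At least 2-fold more members were called with FSK than in CON in 279 clusters in WT and in 230 in Med14 S983A, and at least 2-fold fewer in 2 and 6.

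To compare libraries peak by peak, differences were taken on the log2(FPKM + 0.5) scale. Peaks whose levels averaged at least 1 FPKM across the 6 libraries entered, and those at least 2-fold higher or lower after treatment are called opened or closed. The added 0.5 FPKM reduces the change of weak peaks that have a level in both libraries. A peak not called in a library enters with a level of 0 there, so that its change can be overstated. Of the members, 29628 (65.5%) passed this limit, which a peak can pass through a single library where it is high. The rest, with lower means, are not in the counts.

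FSK opened members more often than other peaks. In WT, 8401 members (28.4%) were opened, against 20.4% of all peaks that passed the limit, and 1688 (5.70%) were closed, against 7.39%. Under quantile normalization of the libraries, 7715 members were opened (26.0%, against 18.1% of all peaks) and 3988 closed (13.5%, against 18.8%), so that over all peaks closing was then as frequent as opening. In Med14 S983A, 7288 members (24.6%) were opened, against 17.4% of all peaks, and 1961 (6.62%) were closed, against 8.85%. Most of the opened members, 6583 in WT and 5713 in Med14 S983A (78.4% in each), were listed at 0 in CON and are given no fold. Among members called in all 6 libraries, FSK opened 1218 (7.76%) in WT, against 5.94% of all such peaks, and closed 363 (2.31%), against 3.65%. The mutant had 1086 (6.92%) opened, against 4.56%, and 323 (2.06%) closed, against 4.28%.

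By the peak lists alone, 5446 members (12%) were called with FSK in both genotypes and in neither CON library. The share was 9.31% among peaks with 1 to 11 neighbours and 9.25% among those with none. The opposite pattern, called in both CON libraries and in neither FSK library, was found for 508 members (1.12%), against 1.21% and 1.89%.

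The effect of Ex-4 was smaller. In WT, Ex-4 opened 1944 members (6.56%), against 4.58% of all peaks, and closed 1199 (4.05%), against 2.87%. Its counts in Med14 S983A were 2858 opened (9.65%), against 7.87%, and 1089 closed (3.68%), against 2.80%. Members thus exceeded all peaks in both directions, and 91.7% of the opened members in WT and 92.5% in Med14 S983A were listed at 0 in CON. Among members called in all 6 libraries, Ex-4 opened 110 in WT (0.701%, against 0.448%) and 129 in Med14 S983A (0.822%, against 0.634%). It closed 20 (0.127%, against 0.0625%) and 18 (0.115%, against 0.0497%). The CON library of a genotype is the reference of both of its comparisons.

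Peaks that appeared under a stimulus count as neighbours, so the number of neighbours is not independent of opening. The share opened by FSK rose with this number over the whole range. In WT it was 15.9% of peaks without a neighbour, 16.5% with 1 to 3, 18.7% with 4 to 7 and 21.5% with 8 to 11. Among members it was 25.3% with 12 to 15 neighbours, 29.7% with 16 to 19, 39.6% with 20 to 24 and 61.1% with 25 to 46. No step marked the limit of the rule: the share was 22.7% with 11 neighbours and 23.5% with 12. In Med14 S983A the share rose from 13.3% without a neighbour to 54.9% with 25 to 46. The share opened by Ex-4 rose from 3.84% to 21.3% in WT and from 7.75% to 26.6% in Med14 S983A between the same ends, with most of the rise above 20 neighbours. Among peaks called in all 6 libraries, FSK in WT opened 5.01% without a neighbour, 6.84% with 12 to 15 and 24.1% with 25 to 46. Closing went the other way at low density: FSK closed 12.1% of peaks without a neighbour in WT, 6.01% with 8 to 11 and 3.77% with 25 to 46.

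**Figure D3:**
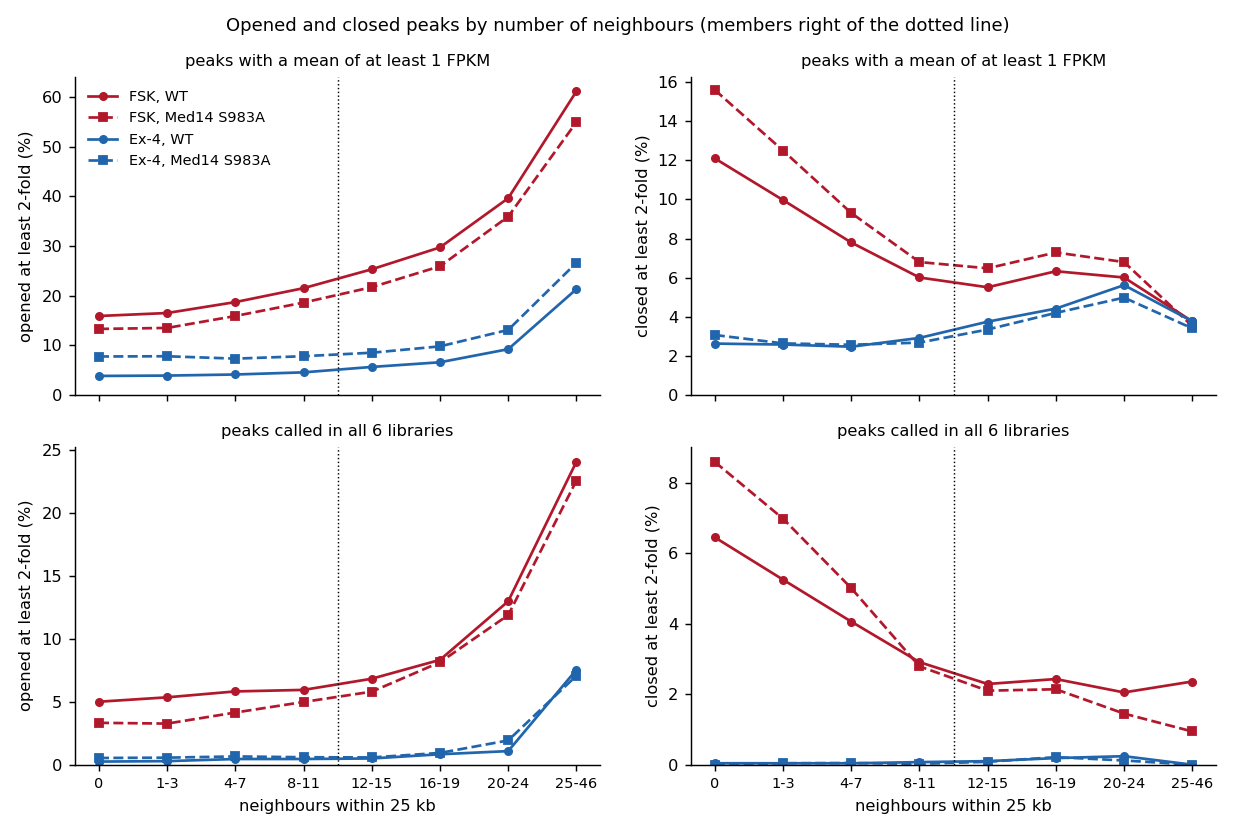
Share of peaks (y axis, %) opened (left) or closed (right) at least 2-fold by FSK (red) or Ex-4 (blue) in WT (solid) and Med14 S983A (dashed), by number of neighbours within 25 kb (x axis, unequal bins). Neighbours include peaks called only under a stimulus, so the axes are not independent. The upper row holds peaks past the limit of 1 FPKM, the lower row those called in all 6 libraries; with FSK in WT the opened share rises from 15.9% to 61.1% (upper) and from 5.01% to 24.1% (lower).

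The bin of 25 to 46 neighbours held 1122 members of 59 clusters, and its shares rested in part on the largest cluster, described below. Without this cluster, FSK opened 53.3% of the bin in WT and 48.8% in Med14 S983A, and Ex-4 opened 16.6% and 19.8%. Among its members called in all 6 libraries, 195 remained. Of these, Ex-4 opened 3.59% in WT, against 7.55% with the cluster included, and 2.56% in Med14 S983A, against 7.08%. FSK opened 20% in WT, against 24.1%, and 17.9% in Med14 S983A, against 22.6%. Over all members, leaving out the 17 clusters of at least 100 members changed the share opened by FSK in WT from 28.4% to 27.4%.

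The higher share of opened members was present in each stratum of level. Since a mean over all libraries contains the change itself, the peaks were grouped by their mean in the 3 libraries of the other genotype, which the comparison does not use. These include its FSK library, however, and the FSK changes of the genotypes went together (Pearson correlation 0.59 over members past the limit). The strata therefore do not fully separate level from response. Of peaks with a mean of 1 to 2 FPKM in Med14 S983A, FSK in WT opened 38.5% of members and 33.8% of peaks with 1 to 11 neighbours. The shares were 35.5% and 22.7% at 2 to 4 FPKM, 26.9% and 13.9% at 4 to 8 FPKM, 15.9% and 8.10% at 8 to 16 FPKM, and 6.06% and 3.71% from 16 FPKM. In Med14 S983A, grouped by the WT libraries, the shares went from 34.9% and 29.9% at 1 to 2 FPKM to 6.09% and 3.74% from 16 FPKM. Members were thus above the less dense peaks in all 5 strata of both genotypes, with the smallest ratio among the weakest peaks.

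How density was counted changed the size of the excess. With neighbours counted only among peaks called in WT CON, 4847 peaks had at least 12, and FSK opened 25.5% of the 3850 past the limit in WT, against 20.4% of all peaks. With density taken from the libraries of the other genotype, peaks past the limit with at least 12 neighbours in the 3 Med14 S983A lists together were opened by FSK in WT in 30.8% of cases, and in 8.56% when called in all 6 libraries, against 5.94%. With the Med14 S983A CON list alone, the share was 25.6%, but for peaks called in all 6 libraries it was 5.56%, below the 5.94% of all such peaks. In the reverse direction, peaks that were dense in the WT CON list were opened by FSK in Med14 S983A in 21.0% of cases, against 17.4%, and in 5.37%, against 4.56%, when called in all 6 libraries. Density before the stimulus thus went with a smaller excess than density counted over all libraries, and with none in 1 of these comparisons.

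The largest cluster was at chr1:52336068-52841005 and spanned 504.9 kb with 286 members, 247 of which passed the limit. FSK opened 212 (85.8%) in WT and 168 (68.0%) in Med14 S983A, and Ex-4 opened 84 (34.0%) and 103 (41.7%). In WT CON 56 of the 286 members were called, in WT Ex-4 119 and in WT FSK 246. In Med14 S983A the numbers were 78, 150 and 204. The median level of the 247 members was 0 FPKM in WT CON and WT Ex-4 and 11.5 FPKM in WT FSK, and 0, 2.47 and 10.5 FPKM in Med14 S983A. Most members of the cluster were thus absent from CON and present with FSK: 195 of the 247 members were listed at 0 in WT CON and 18 in WT FSK.

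The opening was not uniform along the cluster. Before the centre of the cluster lay 97 members at a median spacing of 1944 bp, and the 63 that passed the limit had a median of 6.48 FPKM in WT FSK and 3.79 FPKM in Med14 S983A FSK. FSK opened 50 of these 63 in WT and 29 in Med14 S983A, and Ex-4 opened 15 and 11. After the centre lay 189 members at a median spacing of 975 bp. The 184 of these that passed had a median of 12.1 FPKM in WT FSK, with quartiles of 9.71 and 14.5 FPKM, and 11.8 FPKM in Med14 S983A FSK, with quartiles of 8.16 and 15.2 FPKM. In CON 156 of the 184 were listed at 0 in WT and 143 in Med14 S983A. With FSK 15 were listed at 0 in WT and 38 in Med14 S983A, so that some gaps remained. FSK opened 162 of the 184 in WT and 139 in Med14 S983A, and Ex-4 opened 69 and 92. As a share of the members that passed (63 before the centre, 184 after it), the genotype difference in opening by FSK was thus wider before the centre. In numbers of members it was similar on both sides. Of the 63 before the centre, 3 were listed at 0 in WT FSK and 12 in Med14 S983A FSK, the shallower library. The part of depth was not tested. Outside the cluster, FSK opened 4 of 18 peaks in the 250 kb before it and 13 of 42 in the 250 kb after it in WT.

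**Figure D4:**
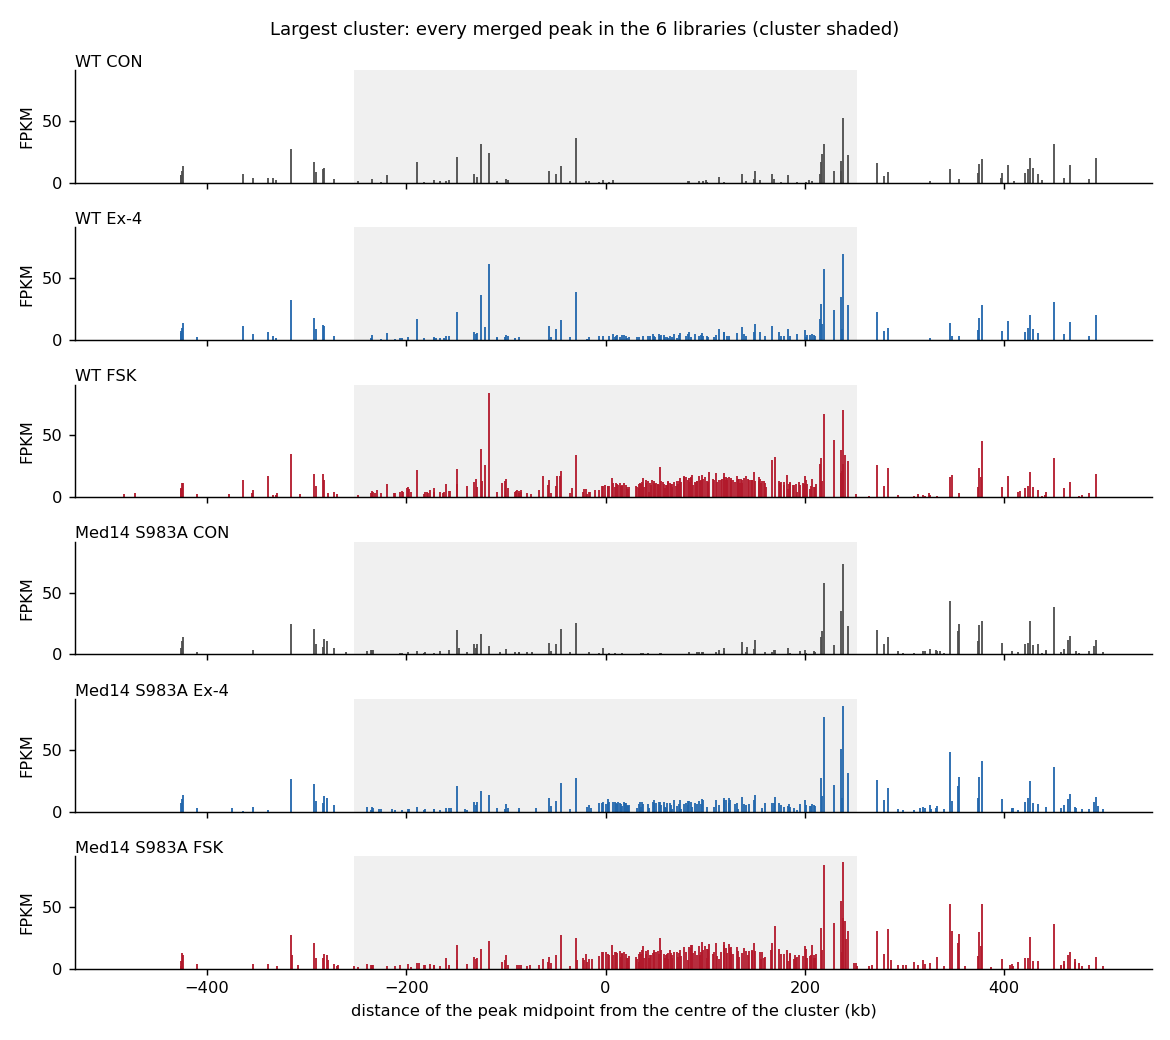
FPKM (y axis, the same scale in each row) of every merged peak in and around the largest cluster, by distance of its midpoint from the centre of the cluster in kb (x axis), in the 6 libraries (1 row each, cluster shaded). After the centre, many closely spaced peaks near 12 FPKM lie in the WT FSK and Med14 S983A FSK rows, lower ones in the Ex-4 rows, and few are present in CON.

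Single members of the largest cluster followed the same order. The member with the most neighbours, 46, was chr1:52650678-52650790. It was listed at 0 in CON and Ex-4 of both genotypes and had 12.6 FPKM in WT FSK (95% exact Poisson interval 11.3 to 14, which like those below covers counting error only) and 13.0 FPKM in Med14 S983A FSK (11.4 to 14.8). Of all members called in the 6 libraries, the largest rise under FSK in WT was at chr1:52707415-52708240, also in this cluster. It had 0.632 FPKM in WT CON (0.50 to 0.788), 6.52 FPKM in WT Ex-4 and 19.9 FPKM in WT FSK, a log2 change of 4.17 with FSK. The mutant had 2.66 FPKM in CON (2.37 to 2.98), 9.66 FPKM with Ex-4 and 21.4 FPKM with FSK, a log2 change of 2.79. The FSK levels of the genotypes were close, and the mutant's smaller change went with its higher CON level.

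The cluster at chr1:128925060-129220191, with 154 members in 295.1 kb, was of the same kind. FSK opened 94 of 115 members (81.7%) in WT and 63 (54.8%) in Med14 S983A, and Ex-4 opened 42 (36.5%) and 37 (32.2%). The median level was 0 FPKM in WT CON, 1.84 FPKM in WT Ex-4 and 6.95 FPKM in WT FSK. The mutant medians were 0 FPKM in CON and Ex-4 and 3.93 FPKM in FSK, below WT in both stimulated conditions. These medians follow the members listed at 0. With FSK they were 5 of the 115 in WT and 43 in Med14 S983A, the shallower library, and with Ex-4 47 and 62. The part of depth was not tested. Over the 12 members of the cluster called in all 6 libraries, the median log2 change with FSK was 0.45 in WT and 0.47 in Med14 S983A. The member of this cluster with most neighbours, 34, at chr1:129039049-129039394, was listed at 0 in WT CON. It had 2.87 FPKM in WT Ex-4 and 10.1 FPKM in WT FSK. In Med14 S983A the same peak had 1.73 FPKM in CON, 3.37 FPKM with Ex-4 and 6.56 FPKM with FSK.

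The other 3 of the 5 largest clusters were open in CON and changed less. The cluster at chr12:17256448-17758013 had 172 members, with a median of 6.03 FPKM in WT CON, 4.86 FPKM in WT Ex-4 and 10.5 FPKM in WT FSK, and 4.05, 4.33 and 6.91 FPKM in Med14 S983A. The cluster at chr7:11389700-11974546 had 165 members, with medians of 9.98, 10.1 and 12.5 FPKM in WT and 11.4, 11.1 and 13.5 FPKM in Med14 S983A. The cluster at chr12:47088394-47495663 had 151 members, with medians of 7.24, 6.82 and 9.63 FPKM in WT and 3.74, 4.11 and 4.85 FPKM in Med14 S983A. FSK opened 28.7% of the members of the first in WT and 24.6% in Med14 S983A, close to the shares over members. In the other two it opened 20.9% and 21.1% in WT and 16.3% and 16.7% in Med14 S983A, close to the shares over all peaks.

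In smaller clusters the share opened by FSK ranged widely. Over the 1065 clusters with at least 10 members past the limit, the median share was 26.3% in WT, and 5% of the clusters lay below 7.14% and 5% above 59.0%. The highest share was 93.3%, at least 50% of the members were opened in 110 clusters, and none in 24. In Med14 S983A the median was 21.4%, with 80 clusters at 50% or more and 48 with none. The 110 clusters held 2535 of the members past the limit, and 1622 of the 8401 opened in WT. For Ex-4 in WT a single cluster reached 50%.

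The 5 clusters with the highest share opened in the genotype where it was lower were on chromosomes 20, 19, 2, 18 and 6, and in all of them the median was 0 FPKM in both CON libraries. Single members were open in CON, up to 43.1 FPKM in WT in the chromosome 18 cluster and up to 40.3 FPKM in Med14 S983A in the chromosome 6 cluster. At chr20:10666292-10729973, FSK opened 10 of 12 members in WT and all 12 in Med14 S983A, and the median went from 0 FPKM in WT CON to 4.25 FPKM in WT FSK and from 0 to 9.76 FPKM in Med14 S983A. At chr19:41537058-41584487, 9 of 11 members were opened in each genotype, with medians of 5.99 FPKM in WT FSK and 3.84 FPKM in Med14 S983A FSK. The cluster at chr2:26509990-26678271 had 18 of 22 opened in WT and 19 in Med14 S983A, with FSK medians of 4.23 and 5.14 FPKM. The cluster at chr18:25726235-25975933 had 25 of 32 opened in each genotype, with FSK medians of 4.86 and 3.73 FPKM. At chr6:25582215-25628713, 16 of 21 were opened in WT and 18 in Med14 S983A, with FSK medians of 9.19 and 13.0 FPKM. The mutant had the higher FSK median in 3 of the 5 clusters and WT in the other 2. These clusters were chosen by this share, so the values describe them only.

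Outside the largest cluster, the members called in all 6 libraries with the strongest rises in WT also rose in Med14 S983A, by less on the log2 scale. The peak at chr16:26992508-26993172 had 0.795 FPKM in WT CON, 3.38 FPKM in WT Ex-4 and 22.6 FPKM in WT FSK, and 0.875, 4.90 and 18.8 FPKM in Med14 S983A. The peak at chr4:177415968-177416391 had 2.75, 7.68 and 54.6 FPKM in WT and 2.94, 9.93 and 38.2 FPKM in Med14 S983A. The peaks at chr14:3290317-3291437 and chr16:82075702-82076092 rose from 0.902 to 22.7 FPKM and from 1.66 to 26.2 FPKM with FSK in WT, and from 1.30 to 24.8 FPKM and from 1.97 to 22.5 FPKM in Med14 S983A. In all 4 peaks Ex-4 lay between CON and FSK in both genotypes, and the log2 change with FSK, from 3.63 to 4.16 in WT, was 3.22 to 3.82 in Med14 S983A. It was smaller in the mutant at each of the 4, which were chosen for a large rise in WT.

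The strongest falls also passed through an intermediate Ex-4 level, but their CON levels were lower in the mutant. The peak at chr4:146786442-146787093 had 44.3 FPKM in WT CON, 23.3 FPKM in WT Ex-4 and 5.31 FPKM in WT FSK, and 25, 9.26 and 4.16 FPKM in Med14 S983A. The peak at chr14:94273281-94273766 had 40.3, 16.4 and 4.94 FPKM in WT, and 4.53, 2.89 and 1.67 FPKM in Med14 S983A. The peak at chr10:14771352-14772319 had 36.5, 22.0 and 4.95 FPKM in WT, and 12.3, 4.11 and 3.72 FPKM in Med14 S983A. At chr2:188458132-188459497 the levels were 22.7, 10.3 and 3.71 FPKM in WT and 16.4, 9.69 and 7.39 FPKM in Med14 S983A, and at chr10:47987603-47988291 they were 30.0, 13.3 and 5.32 FPKM and 8.95, 3.24 and 1.60 FPKM. All 5 were lower in Med14 S983A CON than in WT CON, and since they were chosen for a large fall in WT, a high WT CON level is part of the choice.

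Neighbouring members shared a small part of the variation in their log2 changes, as neighbouring peaks did outside dense clusters. Over clusters with at least 5 members past the limit, 7.89% of the variance of the log2 FSK change in WT lay between clusters, and 7.74% in Med14 S983A. For Ex-4 it was 1.94% and 2.25%, and for the genotype difference in CON 6.87%. Among members called in all 6 libraries the shares were higher, with 13.5% and 13.6% for FSK, 13.9% and 10.0% for Ex-4 and 16.8% for the genotype difference. Most of the variation thus lay within clusters. That part also holds counting error and, for members past the limit, calls missing in a library. Without replicates these cannot be told apart from differences in response. Over adjacent members called in all 6 libraries, the FSK changes in WT of both peaks of a pair had a Pearson correlation of 0.18 below 1000 bp (1165 pairs) and 0.20 at 10000 to 25000 bp (2643 pairs). Between adjacent peaks with 1 to 11 neighbours it was 0.16 and 0.14. The genotype difference had a correlation of 0.43 below 1000 bp and 0.17 at 10000 to 25000 bp among members, and 0.50 and 0.18 among peaks with 1 to 11 neighbours. The peaks of a pair share both libraries and their chromosome, and pairs are not replicates.

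The response to FSK was then compared between genotypes. Of the members opened in WT, 5554 were also opened in Med14 S983A, which are 66.1% of those in WT and 76.2% of those in Med14 S983A. Among all peaks the shares were 65.6% and 76.9%, nearly the same. Over members called in all 6 libraries, the FSK changes of the genotypes, which share no library, had a Pearson correlation of 0.85 across 15697 peaks, and 0.85 over all such peaks. Over these members the median difference of the FSK change, Med14 S983A minus WT, was 0.05 (95% order-statistic interval over peaks 0.046 to 0.055, which is no replicate error), against 0 over all such peaks. It was 0.10 when each library was centred on its median. Centring shifts all such peaks as well, so this value is not to be set against 0.

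Among members that FSK opened, the change was slightly smaller in Med14 S983A. Over the 1101 members called in all 6 libraries and opened on the mean of both genotypes, the median log2 change was 1.49 in WT and 1.38 in Med14 S983A. The median difference was -0.14 (-0.17 to -0.11), and 62.6% of the peaks were lower in the mutant. For peaks with 1 to 11 neighbours, 3070 were opened in this way and the median difference was -0.23 (-0.25 to -0.21). Over all peaks past the limit, which include those at 0 in some libraries, the median difference was -0.22 for 9128 opened members (-0.24 to -0.19) and -0.22 for 21241 opened peaks with 1 to 11 neighbours (-0.24 to -0.21). The smaller difference of members was thus present among peaks called in all 6 libraries and not over all peaks past the limit. The intervals leave out the spread between cultures. For Ex-4, 71 members opened on the mean had median changes of 1.24 in WT and 1.28 in Med14 S983A. Their median difference was 0.088 (-0.055 to 0.28 over peaks, which are not replicates, so the interval is no test against 0).

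Across clusters, the FSK response of WT and Med14 S983A went together. In the 1189 clusters with at least 5 members called in all 6 libraries, the median FSK change was above 0 in both genotypes in 357 and below 0 in both in 550. It was above 0 in Med14 S983A only in 207 and in WT only in 74. The cluster medians had a Pearson correlation of 0.78 between genotypes. The genotype difference of a cluster was steadier still, with a correlation of 0.88 between its values in CON and with FSK, which come from separate libraries.

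**Figure D5:**
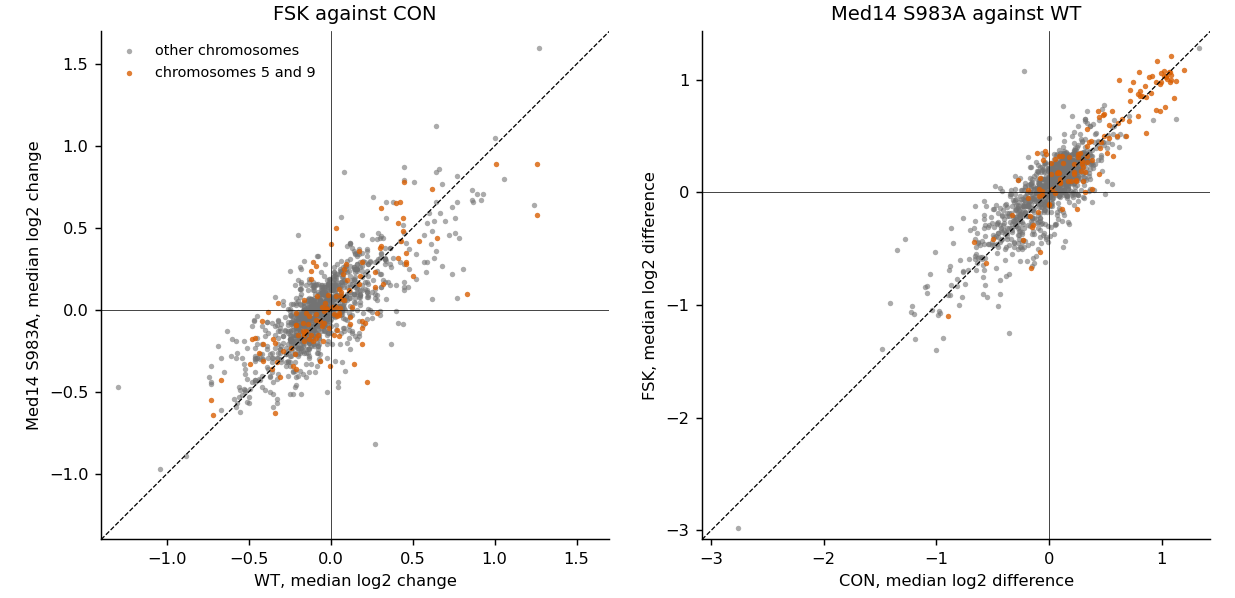
Each point is 1 of 1189 clusters with at least 5 members called in all 6 libraries, with chromosomes 5 and 9 in orange and the dashed line marking equal values. Left, median log2 change with FSK in WT (x) and Med14 S983A (y), correlation 0.78; right, median log2 difference between Med14 S983A and WT in CON (x) and with FSK (y), correlation 0.88, with a group of orange points near 1 on both axes.

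Without treatment, fewer members than other peaks were lower in the mutant, except among peaks with high levels. In CON, 3686 members (12.4%) had a level in Med14 S983A at least 2-fold above that in WT, against 11.3% of all peaks, and 5216 (17.6%) were lower, against 21.5%. With Ex-4, 4428 (14.9%) were higher, against 13.3%, and 4842 (16.3%) were lower, against 19.9%. Members lower in all 3 treatments numbered 2986 (10.1%, against 14.9% of all peaks), and 1600 were higher in all 3 (5.40%, against 5.62%). By the peak lists, 1494 members (3.30%) were called in every WT library and in no mutant library, against 6.04% of peaks with 1 to 11 neighbours and 9.40% of those with none. Among members called in all 6 libraries the gap was narrow in CON, with 757 (4.82%, against 4.90%) higher and 1478 (9.42%, against 10.5%) lower. With FSK, 710 of these members (4.52%, against 4.07%) were higher and 1439 (9.17%, against 11.4%) lower. The order in CON depended on the mean level over the 6 libraries. At 1 to 2 FPKM, 21.3% of members were lower, against 32.8% of peaks with 1 to 11 neighbours. The shares were 20.4% and 28.3% at 2 to 4 FPKM, and 21.4% and 22.5% at 4 to 8 FPKM. Members exceeded these peaks at 8 to 16 FPKM (18.6% and 16%) and from 16 FPKM (5.6% and 4.24%). Med14 S983A CON was the shallowest library, and the part of depth was not tested.

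The genotype difference of members depended on the chromosome, in most cases with that of the other peaks there. Over members called in all 6 libraries, its median in CON was 0.38 on chromosome 5 and 0.35 on chromosome 9, against 0.21 and 0.30 over all such peaks of these chromosomes. At least 2-fold higher in the mutant were 17.6% and 17.0% of the members, against 12.2% and 18.1%. The median was -0.33 on chromosome 17 and -0.21 on chromosome 12, against -0.16 and -0.17, and 18.0% and 14% of the members were lower, against 14.9% and 13.2%. On chromosome 15 the 157 members had a median of -0.14, against 0.016, and 18.5% were lower, against 12.1%. The other chromosomes had medians between -0.018 and 0.13.

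The clusters with the highest median genotype difference in CON were on chromosomes 9 and 1. At chr9:119199873-119268212, all 10 members past the limit were higher in Med14 S983A CON, with a median of 4.18 FPKM against 0 in WT CON, where 8 of the 10 were listed at 0. At chr9:113504057-113579823, 11 of 14 members were higher, with medians of 7.98 and 0 FPKM. At chr1:264047097-264094042, 9 of 15 were higher, with medians of 11 and 0 FPKM. In all 3 clusters the mutant's median was above the WT median under each stimulus as well.

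The lowest were on chromosomes 17, 12 and 9. At chr17:10080339-10246503, 18 of 24 members were lower in Med14 S983A CON, with a median of 0 FPKM against 3.57 FPKM in WT CON. At chr12:16652006-16746538, 8 of 11 were lower and 2 were higher, with medians of 0.534 and 2.94 FPKM. At chr9:54234074-54278360, 6 of 10 were lower and 1 was higher, with medians of 1.38 and 3.17 FPKM. Neighbouring members of a cluster could thus differ between genotypes in opposite directions.

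Single members that differed at least 2-fold in the same direction in all 3 treatments differed most at the following sites. The peak at chr6:132195309-132196110 had 0.379 FPKM in WT CON (0.278 to 0.506), 0.841 FPKM in WT Ex-4 and 1.52 FPKM in WT FSK, and 40.0, 45.6 and 63.6 FPKM in Med14 S983A. The peak at chr9:119261603-119262353 had at most 0.774 FPKM in WT and between 27.5 and 38.5 FPKM in Med14 S983A, and lies in the first of the high chromosome 9 clusters. The peak at chr7:12731726-12732741 had 1.08, 1.40 and 1.27 FPKM in WT, without a rise under FSK, and 28.7, 38.6 and 76.5 FPKM in Med14 S983A. In this last peak the mutant alone had a response of more than 2-fold to FSK.

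In the opposite direction, chr18:25948786-25949358 had 43.1, 44.2 and 40.9 FPKM in WT and 0.716, 1.02 and 1.73 FPKM in Med14 S983A. It lies in the chromosome 18 cluster that FSK opened in both genotypes. The peak at chr3:140718519-140719218 had 56.6, 40.0 and 19.5 FPKM in WT and 2.25, 1.01 and 0.553 FPKM in Med14 S983A, a fall with the stimuli at either level. The peak at chr1:260857719-260858480 had 41.3, 39.9 and 21.8 FPKM in WT and 1.58, 1.84 and 0.532 FPKM in Med14 S983A. In these 3 peaks no mutant level reached the lowest WT level.

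The remaining members with many neighbours, 1 per cluster, were also opened by FSK. The peak at chr17:66332912-66333104, with 33 neighbours, was absent from the lists of CON and Ex-4 in both genotypes, and had 9.89 FPKM in WT FSK (9.02 to 10.8) and 5.24 FPKM in Med14 S983A FSK (4.47 to 6.11). The peak at chr5:12462221-12462897, with 36 neighbours, was listed at 0 in WT CON and WT Ex-4 and had 2.29 FPKM in WT FSK. In Med14 S983A it had 0.452 FPKM in CON, 1.89 FPKM with Ex-4 and 4.59 FPKM with FSK. The peak at chr1:221194296-221194723, with 34 neighbours, was listed at 0 in WT CON and had 3.29 FPKM in WT Ex-4 and 11.5 FPKM in WT FSK. The mutant had this peak open already in CON, with 25.5 FPKM (24.2 to 26.8), followed by 28.5 FPKM with Ex-4 and 58.0 FPKM with FSK, above WT in each treatment.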

How the data were processed

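Per the study's methods, reads were trimmed (Trim Galore), aligned (bwa mem, rn6) and filtered (samtools), and macs2 peaks were called per library. The authors merged the peaks and deposited FPKM from HOMER for each. Fragments were shifted before the authors' nucleosome analysis, but the sources do not say whether the deposited values were made from shifted fragments. From the deposited FPKM, neighbours were counted within 25000 bp between midpoints over all merged peaks outside the mitochondrial chromosome (3 peaks were left out), and members with midpoints at most 25000 bp apart were joined into clusters. Differences used log2(FPKM + 0.5), a limit of 1 FPKM on the average of the 6 libraries and a 2-fold size rule. Reads in peaks were recovered from the steps of low values, all within 0.15 of whole steps, and gave the Poisson intervals. With 1 library per condition no p-value was computed. The members, named regions and alternatives were chosen with earlier results of these data known. Named were the 5 clusters with most members, the 5 members with most neighbours, the 5 largest rises and 5 largest falls under FSK in WT, the 5 clusters with the highest share opened in both genotypes, and the 3 highest and 3 lowest genotype differences of members and of clusters. Genes, markers and motifs were not analysed here. The calculation was tested on simulated data. For the counts of opened peaks these used only members with a level in WT CON and no calling threshold, so peaks not called in CON were not covered. Software was matplotlib 3.10.9, scipy 1.17.1, pandas 2.3.3, numpy 2.4.6 and Python 3.11.15.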

Additional observations from a re-analysis of the deposited data

Results flagged for a closer look

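In 159 members (0.537% of those past the limit of 1 FPKM, against 0.365% of all peaks) FSK opened the peak at least 2-fold in WT and closed it at least 2-fold in Med14 S983A, and in 76 members (0.257%, against 0.144%) it did the reverse. These effects in opposite directions put them here, and the difference was not tested, since each condition had 1 library. All but 1 of the 235 peaks were listed at 0 in at least 1 of the CON and FSK libraries. The exception, chr1:199054098-199054477, had 2.26 FPKM in WT CON, 2.23 FPKM in WT Ex-4 and 0.819 FPKM in WT FSK, and 1.18, 2.29 and 2.98 FPKM in Med14 S983A.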

How the results depend on the processing

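No paired analysis was possible because there are no replicates (1 library per condition), and for the same reason none could be left out. Over 20 alternatives, 103 values were labelled as kept, 62 as moved and 0 as reversed. The label of kept was wide: it held 2890 members closed by FSK in Med14 S983A under quantile normalization, against 1961. Most values are counts, which cannot reverse, so the order against all peaks is given below. In the following, counts of opened and closed members are given first for WT (FSK, then Ex-4) and then for Med14 S983A (FSK, then Ex-4). Without a filter on low values they were 14633 and 3587, 3700 and 3062, 11941 and 3692, and 5193 and 2778 of 45248 members, and 5622 were higher in Med14 S983A CON. With a mean of at least 3 FPKM they were 3317 and 691, 748 and 271, 2885 and 826, and 1038 and 254, with 1799 higher and 2870 lower in the mutant. For members called in all 6 libraries they were 1218 and 363, 110 and 20, 1086 and 323, and 129 and 18, with 757 higher and 1478 lower. With at least 12 neighbours among WT CON peaks they were 982 and 284, 228 and 195, 810 and 268, and 328 and 156, with 431 higher and 666 lower. With at least 16 neighbours they were 3478 and 617, 845 and 469, 3076 and 701, and 1202 and 437, with 1264 higher and 1766 lower. Fewer or more members enter each of these counts by construction.

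With at least 6 neighbours among peaks called in all 6 libraries, Ex-4 in WT opened 1240, FSK in Med14 S983A 4658 and Ex-4 in Med14 S983A 1803 (7.64%, below the 7.87% of all peaks). FSK closed 3988 in WT under quantile normalization, 3313 in WT and 3126 in Med14 S983A with a 1.5-fold rule, and 1006 in WT with a 4-fold rule (a share above the 3.10% of all peaks). The share opened was above that of all peaks in 16 of 16 settings for FSK in both genotypes and for Ex-4 in WT, and in 15 of 16 for Ex-4 in Med14 S983A. The share closed by FSK in WT was above it in 1 of 16, and the share higher in Med14 S983A CON in 14 of 16. The median genotype difference of the FSK change was 0.10 with centred libraries, 0.078 with quantile normalization, 0.071 with WT CON neighbours, 0.057 without peaks called only in WT FSK, 0.023 below 500 bp and 0.017 over all members with a mean of at least 1 FPKM. The cause was not tested. Leaving out members called only in WT FSK, an alternative added after the data were seen like the level strata, the other-genotype densities and the omission of large clusters, FSK opened 26.1% in WT, against 19.3% of all peaks. Depth limits weak peaks, since a peak below a library's calling threshold is listed at 0.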
